A study of Rattus norvegicus with 6 samples.

Results

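Antiviral interferon-stimulated genes, which cells switch on when interferon reaches their surface, were examined across rat brain libraries as a set of 47 listed genes. Members were the rows of the gene table whose symbol equals a listed name, ignoring letter case, and all 47 were found among 19382 genes. Total RNA from brain tissue of Sprague-Dawley (SD) rats was made into 6 libraries with an mRNA sequencing kit. Of these, 3 were labelled with a control treatment and 3 with a hypoxic-ischemic treatment (HI). HI combines loss of blood flow with low oxygen as a model of brain injury around birth. The HI animals were 7 days old when they underwent 2.5 h of ischemia-hypoxia, and their age at sampling is not given. No genotype, transgene or drug is named for these libraries, and the labels give neither the brain region, the interval from injury to sampling, the handling or age of the controls, nor whether the libraries came from separate animals. The p-values below rest on how far libraries of one group lie apart, and part of that spread may be technical.

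Interferons are secreted proteins that cells release after sensing nucleic acid of viruses, or their own nucleic acid when it is misplaced. Receptors for type I interferon act through the kinases Jak1 and Tyk2 on a complex that includes Stat2 and Irf9 and binds interferon-stimulated response elements in promoters, while the response to interferon gamma runs through gamma-activated sites. The induced proteins sense foreign RNA, degrade it, block its translation, trap virus particles at membranes or mark vacuoles for destruction. In the brain, microglia, astrocytes, endothelial cells and neurons can all respond to interferon.

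Libraries held 13922663 to 14927469 estimated reads. Levels are CPM, read counts scaled to a common library size with TMM factors, and are given for a group in the order of replicates 1, 2 and 3. A count of 0 allows up to 3 reads, equal to 0.221 to 0.227 CPM for a control library and 0.182 to 0.201 CPM for an HI library. The tissue label was checked with markers of neurons (10 genes), astrocytes (9) and the oligodendrocyte lineage (8), which all had reads in every library. Tissue content differed between libraries of one group, and some markers also differed between the groups. The 8 choroid plexus markers summed to 15.9, 2155 and 6.95 CPM in the controls, beside 180, 8079 and 15170 CPM in HI. Emx1, a transcription factor of the dorsal forebrain, had 541, 687 and 57 reads across controls, against 11, 23 and 36 reads across HI libraries. The Y-linked genes Kdm5d, Eif2s3y and Ddx3 had reads in 1 control (replicate 3) and in HI replicates 2 and 3, and none elsewhere. The part of these differences in the members' values was not tested.

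HI was compared with control to ask which of these genes differ in the injured brain. Of the 47 members 42 had enough reads to be tested, and of these 32 rose in HI, 0 fell and 10 did not pass (edgeR quasi-likelihood F test, two-sided, Benjamini-Hochberg adjusted p below 0.05 over 14959 genes). Of all genes tested 6.83% were called higher and 7.04% lower. DESeq2 and limma-voom also called 0 members lower, and by edgeR 0 were lower at an unadjusted p below 0.05. The members' median log2 fold change was 2.31, against 0.04 over all genes tested, and stayed at 2.31 with Oas1g, which had no control read, set to its lower bound. Called members rose between 3.24-fold and 29.5-fold, not counting Oas1g, and their edgeR adjusted p lay between 0.0215 and 0.0480.

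Reads behind the low members were few. Isg15, Usp18, Ifit1, Oas1g, Oas2 and Oasl passed the filter on low counts through their HI reads, so a difference in them was partly built in, and of the 36 tested members that also passed through controls 27 were called. The 5 members below the filter, and so not tested, were Ifit3, Oas1i, Oas1k, Oas3 and Zbp1. With no filter edgeR called none of these 5, with Ifit3 and Zbp1 at an unadjusted p below 0.05. Without HI 1 Ifit3 passed the filter and was called (edgeR adjusted p = 0.0217). It also passed the filter without control 1, control 2 or control 3 and was not called (edgeR adjusted p = 0.172, 0.177 and 0.131). In 36 of the 42 tested members all 3 HI libraries lay above all 3 controls, which held for 21.5% of all genes tested.

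The count of called members depended on single libraries and on the test. By edgeR it was 0 without control 1, 0 without control 2 and 0 without HI 2. In those fits 37, 39 and 36 of 43, 43 and 42 tested members had an unadjusted p below 0.05. So did 3962 of 15321, 4008 of 15322 and 4175 of 15151 genes tested, and of all genes tested 0, 0 and 0 were called higher. The count of members was 13 without control 3, 16 without HI 3 and 38 without HI 1. Over all genes it was 608 of 15335, 245 of 15079 and 2097 of 15265 in the same order. DESeq2 called 37 members higher (13.9% of all genes) and limma-voom 8 (3.69%), which were Isg15, Oas1a, Oas1g, Oas2, Ifih1, Parp9, Ifi44 and Ifi27. Called genes were higher in HI in 49.2% of cases with TMM. This share was 64.3% when upper-quartile factors were used and 74.7% when libraries were scaled by totals, which moved the median of all genes to 0.14 and 0.23 on the log2 scale, and 35 and 36 members were then called higher and 0 lower.

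**Figure D1:**
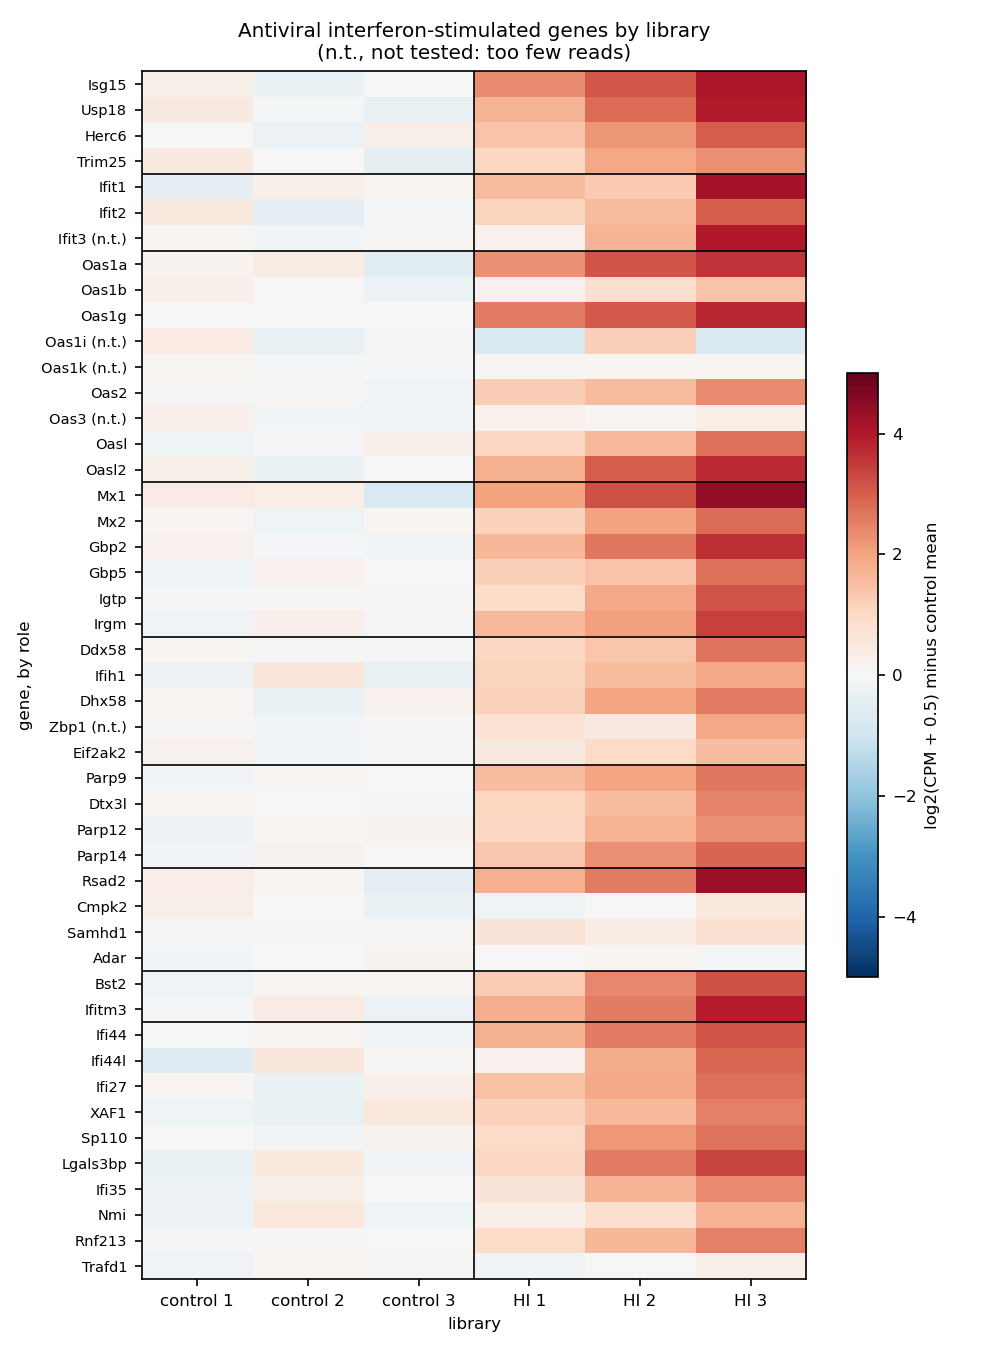
Heat map of 47 genes (rows, grouped by role) in 6 libraries (columns), with colour giving log2(CPM + 0.5) minus the mean of the 3 controls. Most rows are pale in the controls and red in HI, palest in HI 1 and darkest in HI 3, whereas Cmpk2, Adar, Trafd1, Oas1k and Oas3 stay pale throughout.

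**Figure D2:**
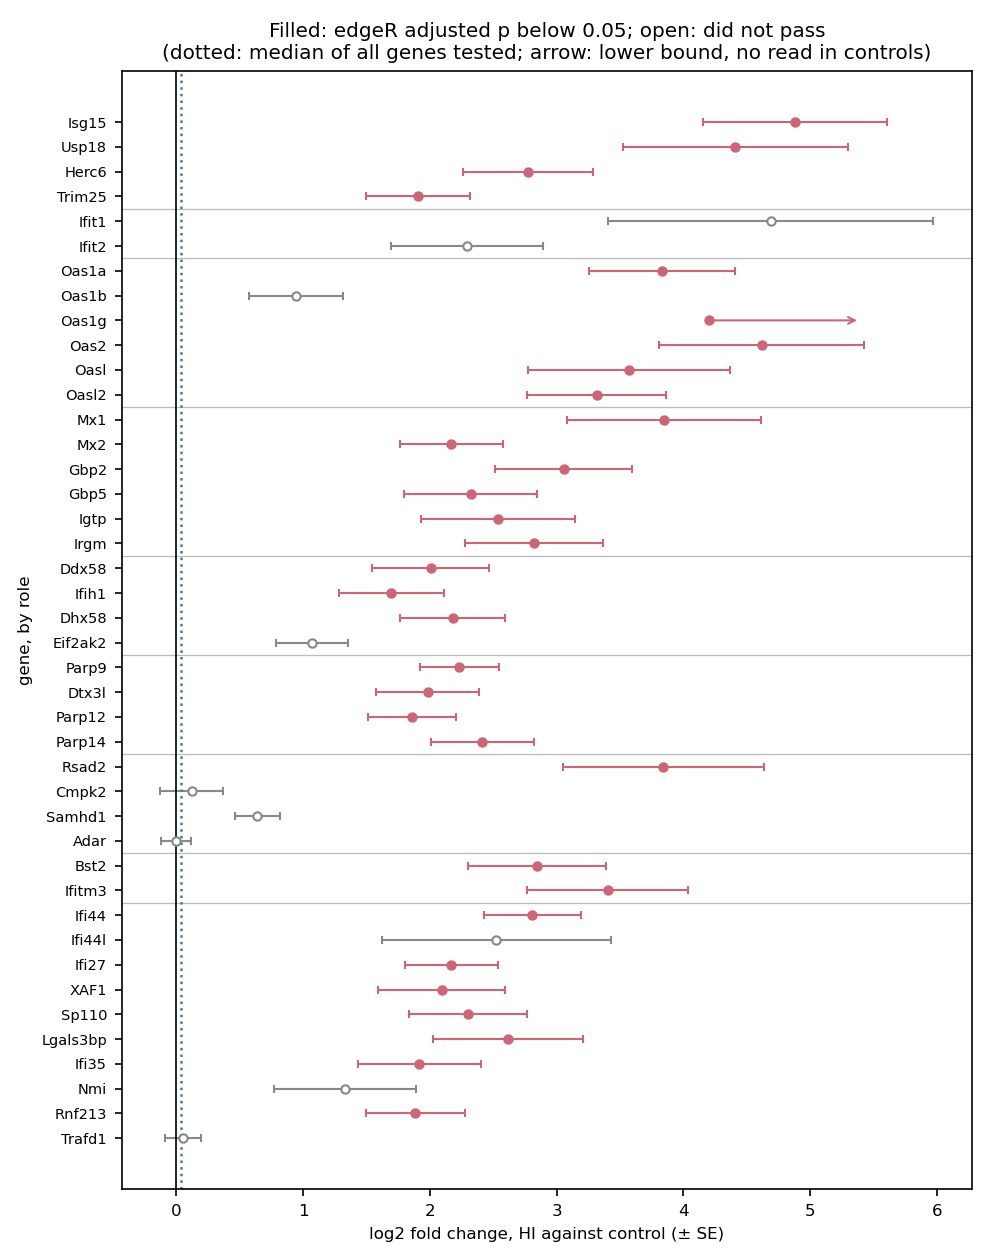
Log2 fold change of HI against control with its SE for the 42 tested genes, grouped by role, filled where the edgeR adjusted p was below 0.05. The 32 filled points lie to the right of the dotted median of all genes (0.04), and Oas1g is drawn at its lower bound.

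Promoter sequence, which played no part in choosing the genes or in the counts, was read from RefSeq windows of assembly GRCr8, each 300 bases long and running from 250 bases before to 50 bases after a transcript start. Windows were held for 35 of the 47 members, and Isg15, Usp18, Ifit1, Ifit2, Oas1g, Oas1k, Oas2, Mx2, Ddx58, Dhx58, Zbp1 and Adar had none. The core of the interferon-stimulated response element, spelled GAAA, then 2 bases of any kind, then GAAA, and searched on both strands, was present in 25 of the 35 members (71.4%) and in 4.12% of 27457 genes with a window, or 3.11% of 11682 genes that were also tested. A gene with several windows counted once if any held a match. In 20 members (57.1%) a match began within 100 bases before the start, against 1.22% of the tested genes. The gamma-activated site TTCNNNGAA, which reads the same on both strands, was found in 9 members (25.7%) and in 7.18% of tested genes, and it overlapped a response element match in 1 member, Bst2. Of 36 other genes of the interferon pathway with a window, listed below, 8 (22.2%) held the gamma-activated site and 4 (11.1%) the response element core. Response element matches were also held by 341 tested genes that are not members, of which 50 (14.7%) were called higher in HI, beside 6.31% of the 11309 without a match. A match is a description of letters and shows no binding.

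Upstream sequence is shown for 1 member in each of the 8 role groups with a match in the stretch, the one with the highest mean CPM, so that the shared element and its varied place can be seen, and for the paralogs Oas1a and Oas1b, added after their values were seen, which hold the same element at a similar place. Each run holds the 160 bases before the transcript start, written 5′ to 3′ on the gene's strand, with capitals marking the response element core or its complement.
Ifit3 (chr1:241527166-241527325, plus strand): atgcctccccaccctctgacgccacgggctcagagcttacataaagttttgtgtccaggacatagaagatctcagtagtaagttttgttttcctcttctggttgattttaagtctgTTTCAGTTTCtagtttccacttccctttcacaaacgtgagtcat
Oasl2 (chr12:47383186-47383345, minus strand): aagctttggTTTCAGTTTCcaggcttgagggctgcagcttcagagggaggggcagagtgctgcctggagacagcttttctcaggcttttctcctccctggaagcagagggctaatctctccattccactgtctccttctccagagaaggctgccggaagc
Gbp2 (chr2:234005567-234005726, plus strand): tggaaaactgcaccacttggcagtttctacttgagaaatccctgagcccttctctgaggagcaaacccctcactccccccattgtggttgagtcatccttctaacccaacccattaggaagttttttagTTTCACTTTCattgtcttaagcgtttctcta
Eif2ak2 (chr6:21940994-21941153, plus strand): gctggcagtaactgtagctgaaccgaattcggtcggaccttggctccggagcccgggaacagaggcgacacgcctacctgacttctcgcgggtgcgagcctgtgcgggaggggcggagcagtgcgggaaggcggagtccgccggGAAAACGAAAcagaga
Parp14 (chr11:78407974-78408133, plus strand): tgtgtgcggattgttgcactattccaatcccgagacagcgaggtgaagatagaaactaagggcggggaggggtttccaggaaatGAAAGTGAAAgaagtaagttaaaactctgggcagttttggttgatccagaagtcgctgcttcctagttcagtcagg
Rsad2 (chr6:48788121-48788280, minus strand): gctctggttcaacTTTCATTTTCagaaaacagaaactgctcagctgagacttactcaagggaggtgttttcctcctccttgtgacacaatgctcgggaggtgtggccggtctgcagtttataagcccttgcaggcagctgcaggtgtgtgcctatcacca
Ifitm3 (chr1:205541759-205541918, minus strand): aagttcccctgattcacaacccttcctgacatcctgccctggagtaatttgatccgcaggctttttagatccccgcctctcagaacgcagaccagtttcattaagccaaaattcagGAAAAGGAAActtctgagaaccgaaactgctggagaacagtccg
Lgals3bp (chr10:104127849-104128008, minus strand): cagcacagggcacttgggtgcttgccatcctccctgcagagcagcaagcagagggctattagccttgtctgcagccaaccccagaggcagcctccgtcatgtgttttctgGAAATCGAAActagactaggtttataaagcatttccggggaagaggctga
Oas1a (chr12:41330306-41330465, plus strand): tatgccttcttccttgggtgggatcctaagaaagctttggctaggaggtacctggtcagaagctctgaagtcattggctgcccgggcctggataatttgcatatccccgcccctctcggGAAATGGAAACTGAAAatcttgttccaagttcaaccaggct
Oas1b (chr12:41395853-41396012, minus strand): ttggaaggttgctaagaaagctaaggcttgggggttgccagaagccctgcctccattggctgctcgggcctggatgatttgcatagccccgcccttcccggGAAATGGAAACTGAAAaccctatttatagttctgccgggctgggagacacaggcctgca
The match began 16 bases before the start in Eif2ak2, 31 in Gbp2, 44 in Ifit3 and Ifitm3, 50 in Lgals3bp and 76 in Parp14, but 147 in Rsad2 and 151 in Oasl2. Oas1a and Oas1b each held 2 overlapping matches, beginning 41 and 35 bases before the start in Oas1a and 59 and 53 in Oas1b. Of the members with both motifs, the gamma-activated site began 11 bases ahead of the response element in Igtp, Irgm and Parp14, 6 and 12 bases ahead of its matches in Bst2, and 154 to 188 bases ahead in Oas1a, Oas1b and Ifi44l. In Ifitm3 it lay after the element. This spacing was looked at after the matches were seen and was not tested. Among tested members 18 of 22 with a match and 7 of 10 without one were called higher, with median log2 fold changes of 2.47 and 1.91. Those without a match were Herc6, Trim25, Oasl, Mx1, Parp9, Cmpk2, Samhd1, Ifi35, Rnf213 and Trafd1.

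**Figure D3:**
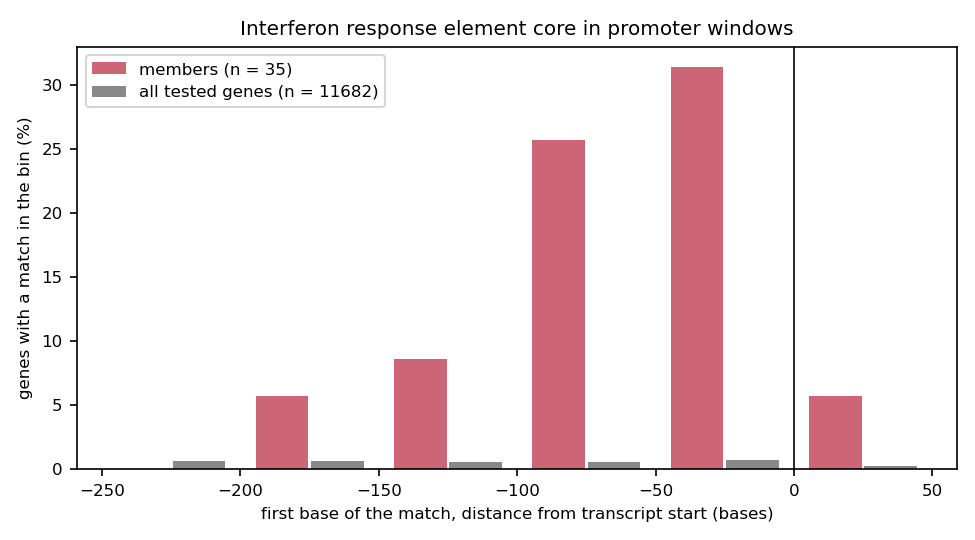
Share of genes (%) with a response element core whose first base falls in each bin of 50 bases, by distance from the transcript start, for 35 members and 11682 tested genes with a RefSeq window. Members reach 31.4% in the bin just before the start and 25.7% in the next, while all tested genes stay at or below 0.728% in every bin.

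The ubiquitin-like modifier Isg15 and the enzymes around it rose, 4 of 4 tested. Isg15, which is joined to other proteins after interferon, stood at 0.379, 0.0736 and 0.225 CPM in the controls and 3.14, 5.72 and 11.8 CPM in HI, from 5, 1 and 3 control reads and 47, 89 and 194 HI reads. Its log2 fold change was 4.88 ± 0.73 (SE) (edgeR adjusted p = 0.0219), a fold whose size is uncertain at so few control reads. Usp18, the protease that removes Isg15 from proteins and damps the type I receptor, stood at 0.53, 0.221 and 0.0749 CPM in the controls and 1.94, 4.76 and 11.3 CPM in HI (log2 fold change 4.41 ± 0.89 (SE), edgeR adjusted p = 0.0313). Herc6, a ligase that attaches Isg15 in rodents, stood at 1.14, 0.81 and 1.5 CPM in the controls and 3.88, 6.94 and 12.8 CPM in HI, a rise of 6.84-fold. Trim25, a ubiquitin ligase that acts with the RNA sensor Ddx58, rose from 4.14 ± 1.42 to 15.5 ± 6.5 CPM (mean ± SD over 3 libraries per group). For these 4 genes the lowest HI value was above the highest control. Ube2l6, the conjugating enzyme for Isg15, rose 3.33-fold (edgeR adjusted p = 0.041), and its activating enzyme Uba7 had a log2 fold change of 1.95 ± 0.58 (SE) that did not pass (edgeR adjusted p = 0.0664).

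IFIT proteins bind viral RNA that lacks the marks of host RNA, and neither of the 2 tested passed. Ifit2 stood at 3.18, 1.4 and 2.02 CPM in the controls and 5.15, 7.26 and 20.1 CPM in HI, with no overlap between groups and a log2 fold change of 2.30 ± 0.60 (SE) (edgeR adjusted p = 0.0509). Ifit1 had 0, 4 and 3 reads in the control libraries and 22, 18 and 189 reads in HI, with HI 3 far above the other libraries (log2 fold change 4.69 ± 1.28 (SE), edgeR adjusted p = 0.056). Ifit3 was not tested and had 1, 0 and 1 reads in the control libraries and 2, 20 and 136 reads in HI. Its pooled reads, 2 in the controls and 158 in HI, give a ratio of 67.4 with a 95% exact interval of 18.4 to 562, which covers counting error only, and 136 of the 158 came from HI 3. In HI 1 it stood at 0.134 CPM, under the limit for a count of 0 in that library. DESeq2 called Ifit1 and Ifit2, with adjusted p of 9.8e-04 for Ifit1 and 1.7e-03 for Ifit2.

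OAS proteins sense double-stranded RNA and make short oligoadenylates, and 5 of 6 tested members of this family rose, while 3 lay below the filter. Oasl2, an OAS-like protein, stood at 2.57, 1.47 and 2.02 CPM in the controls and 8.02, 19.9 and 32.7 CPM in HI, a rise of 9.96-fold (edgeR adjusted p = 0.0238). Oasl, which lacks synthetase activity, had 1, 2 and 4 reads in the control libraries and 13, 24 and 67 reads in HI, a rise of 11.9-fold. Oas2 had 1, 1 and 0 reads in the control libraries and 12, 18 and 38 reads in HI, a pooled ratio of 29.0 with a 95% exact interval of 7.73 to 245 for counting error. These 3 showed no overlap between groups.

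Oas1a, an OAS synthetase, stood at 0.682, 0.884 and 0.225 CPM in the controls and 4.66, 8.8 and 12.3 CPM in HI (edgeR adjusted p = 0.022). Oas1g had no read in any control and 36.31, 57.23 and 103.85 reads in HI, which is at least 18.4-fold higher against 3 reads per control library (edgeR adjusted p = 0.022). Both have entries that are not whole numbers in HI, as when reads are divided among similar genes, so the values of each are uncertain. Oas1i, where the same holds, had 8, 2 and 4 control reads and 0, 21.77 and 0 HI reads. Summed over Oas1a, Oas1g and Oas1i there were 17, 14 and 7 control reads and 106, 215.96 and 307.53 HI reads, a sum that is still not whole in HI 2 and HI 3. The sum rose 13.8-fold (log2 fold change 3.79 ± 0.49 SE, edgeR adjusted p = 0.0214).

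Oas1b, a further OAS paralog and a known locus of resistance to flaviviruses in mice, lies close to Oas1a on the chromosome, with 2 protein-coding genes between them. It stood at 5.23, 4.34 and 3.37 CPM in the controls and 4.95, 7.71 and 12.2 CPM in HI, where HI 1 lay below control 1. The log2 fold change was 0.94 ± 0.37 (SE) and did not pass (edgeR adjusted p = 0.122), and the difference from Oas1a was not tested. Oas3 had 2, 0 and 0 reads in the control libraries and 2, 1 and 3 reads in HI, and Oas1k had 1, 0 and 0 control reads and 1, 1.04 and 1.03 HI reads, too few to detect a difference.

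Large GTPases rose in 6 of 6 cases. Mx1 and Mx2 are dynamin-like proteins that block virus particles inside the cell. Mx1 stood at 1.82, 1.69 and 0.526 CPM in the controls and 6.43, 15.3 and 36.6 CPM in HI, and Mx2 stood at 16.7, 13.3 and 16.5 CPM in the controls and 34.9, 63.9 and 111 CPM in HI (edgeR adjusted p = 0.0279). Both have entries that are not whole, and their sum was whole in every library, with 245, 204 and 228 control reads and 618, 1233 and 2431 HI reads. This sum rose 5.29-fold, from 16.9 ± 1.77 to 89.3 ± 53.7 CPM (SD, n = 3 per group, edgeR adjusted p = 0.0274).

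Gbp2 and Gbp5, guanylate-binding proteins that coat vacuoles holding microbes, rose, Gbp5 by 2.32 ± 0.53 (SE) on the log2 scale. Gbp2 stood at 3.86, 3.09 and 2.92 CPM in the controls and 11.3, 22.8 and 48.1 CPM in HI, a rise of 8.31-fold in which HI 3 held the highest and HI 1 the lowest HI value. Irgm and Igtp are immunity-related GTPases that act on the same vacuoles and are typical targets of interferon gamma. Irgm stood at 1.82, 2.65 and 2.02 CPM in the controls and 7.56, 10.5 and 27.9 CPM in HI (edgeR adjusted p = 0.0286). Igtp rose from 1.92 ± 0.153 to 11.2 ± 8.77 CPM (mean ± SD over 3 libraries per group), and since its entries are not whole, its sum with Irgm2, a relative outside the list, was taken as well, which was whole in every library and rose 5.10-fold (edgeR adjusted p = 0.0294). No GTPase showed overlap between the groups.

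Among sensors of foreign nucleic acid 3 of 4 tested rose. Ddx58 (RIG-I), which detects viral RNA ends in the cytosol, stood at 4.17, 3.68 and 3.67 CPM in the controls and 8.36, 10.9 and 27.0 CPM in HI, a rise of 4.02-fold. Ifih1 (MDA5), which detects long double-stranded RNA, stood at 1.74, 3.61 and 1.57 CPM in the controls and 5.28, 7.45 and 9.75 CPM in HI (edgeR adjusted p = 0.0442). Dhx58 (LGP2), which modulates both, stood at 2.65, 1.84 and 2.85 CPM in the controls and 6.02, 10.8 and 16.5 CPM in HI (edgeR adjusted p = 0.0282). The HI libraries were all above the controls for these helicases. Eif2ak2 (PKR), the kinase that halts translation when it binds double-stranded RNA, stood at 23.2, 18.3 and 19.4 CPM in the controls and 27.7, 40.2 and 60.1 CPM in HI, also without overlap, and its log2 fold change of 1.07 ± 0.28 (SE) did not pass (edgeR adjusted p = 0.0527), although DESeq2 called it (adjusted p = 4.9e-03). Zbp1, a sensor of Z-form nucleic acid that can start necroptosis, was not tested and had 1, 0 and 1 reads in the control libraries and 6, 4 and 26 reads in HI, a pooled ratio of 15.4 with a 95% exact interval of 3.96 to 132 for counting error.

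All 4 genes of the PARP group rose. Parp9 and Dtx3l work as one complex that modifies chromatin and enhances interferon signalling, and no protein-coding gene lies between them in the RefSeq table. Parp9 stood at 4.39, 5.23 and 4.94 CPM in the controls and 15.0, 20.5 and 32.9 CPM in HI and had a log2 fold change of 2.23 ± 0.31 (SE) (edgeR adjusted p = 0.0215). Dtx3l rose from 2.77 ± 0.244 to 11.0 ± 5.83 CPM (mean ± SD over 3 libraries per group). Parp14, a mono-ADP-ribosyl transferase, stood at 5.07, 6.33 and 5.54 CPM in the controls and 15.0, 29.1 and 46.1 CPM in HI (edgeR adjusted p = 0.0241). Parp12, which acts on viral RNA and proteins, rose from 5.8 ± 0.985 to 21.1 ± 8.94 CPM (mean ± SD over 3 libraries per group). In each of them the lowest HI library was above the highest control.

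Of the enzymes acting on nucleotides and RNA 1 of 4 rose. Rsad2 (viperin), which makes a chain-terminating ribonucleotide, stood at 1.14, 0.884 and 0.449 CPM in the controls and 3.95, 7.26 and 24.5 CPM in HI, a rise of 14.3-fold (edgeR adjusted p = 0.0327). Its neighbour Cmpk2, a mitochondrial nucleotide kinase that supplies the same pathway, stood at 30.7, 25.2 and 19.4 CPM in the controls and 21.1, 25.2 and 35.4 CPM in HI, with the groups overlapping and a log2 fold change of 0.12 ± 0.25 (SE) (edgeR adjusted p = 0.751). No protein-coding gene lies between these neighbours in the RefSeq table, and the difference between them was not tested. Samhd1, which depletes the nucleotides that viruses need, stood at 8.63, 7.51 and 8.46 CPM in the controls and 13.2, 10.7 and 14.4 CPM in HI. There the groups did not overlap, and its log2 fold change of 0.64 ± 0.18 (SE) did not pass (edgeR adjusted p = 0.0599). Adar, which edits double-stranded RNA and keeps it from being sensed, stood at 186, 201 and 234 CPM in the controls and 206, 220.4 and 193 CPM in HI, with overlapping groups and a log2 fold change of -0.0037 ± 0.12 (SE) (edgeR adjusted p = 0.985) whose sign changed with upper-quartile factors and total counts.

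Both membrane restriction factors rose. Bst2 (tetherin), which holds budding virus at the cell surface, stood at 1.14, 1.55 and 1.57 CPM in the controls and 4.08, 9.58 and 17.0 CPM in HI (edgeR adjusted p = 0.0286). Ifitm3, which blocks virus fusion in endosomes, stood at 1.29, 1.91 and 1.05 CPM in the controls and 6.15, 10.6 and 28.4 CPM in HI (edgeR adjusted p = 0.0275). Neither showed overlap between groups.

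Of the remaining 10 induced proteins 7 rose. Lgals3bp, a secreted glycoprotein that binds galectin, stood at 9.92, 18.0 and 11.3 CPM in the controls and 26.2, 79.0 and 135 CPM in HI, a rise of 6.14-fold (edgeR adjusted p = 0.038). Ifi27, a mitochondrial and nuclear membrane protein, stood at 10.5, 7.66 and 11.7 CPM in the controls and 27.5, 37.9 and 68.6 CPM in HI (edgeR adjusted p = 0.0243). Rnf213, a large ubiquitin ligase linked to moyamoya disease of brain arteries, stood at 11.5, 12.5 and 11.8 CPM in the controls and 23.1, 39.1 and 70.0 CPM in HI (edgeR adjusted p = 0.0323). For these genes HI and control did not overlap.

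Ifi44, a protein that slows cell growth, stood at 2.5, 2.72 and 2.17 CPM in the controls and 9.7, 16.8 and 25.4 CPM in HI and had the smallest adjusted p of the set together with Parp9 (log2 fold change 2.81 ± 0.38 (SE), edgeR adjusted p = 0.0215). Sp110, a nuclear body protein, XAF1, which opposes inhibitors of apoptosis, and Ifi35, which pairs with Nmi, rose 4.92-fold, 4.26-fold and 3.77-fold. Ifi44l, the neighbour of Ifi44, stood at 0.227, 1.18 and 0.674 CPM in the controls and 0.802, 3.53 and 7.75 CPM in HI, with HI 1 below control 2, and did not pass (log2 fold change 2.53 ± 0.90 (SE), edgeR adjusted p = 0.0983). Nmi, the partner of Ifi35, stood at 0.757, 1.77 and 0.824 CPM in the controls and 1.47, 2.31 and 4.67 CPM in HI, and its groups overlapped (log2 fold change 1.33 ± 0.56 (SE), edgeR adjusted p = 0.14). Trafd1, a brake on Toll-like receptor signalling, stood at 102, 123 and 121 CPM in the controls and 103, 117 and 139 CPM in HI, also overlapping, with a log2 fold change of 0.05 ± 0.14 (SE) (edgeR adjusted p = 0.823).

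**Figure D4:**
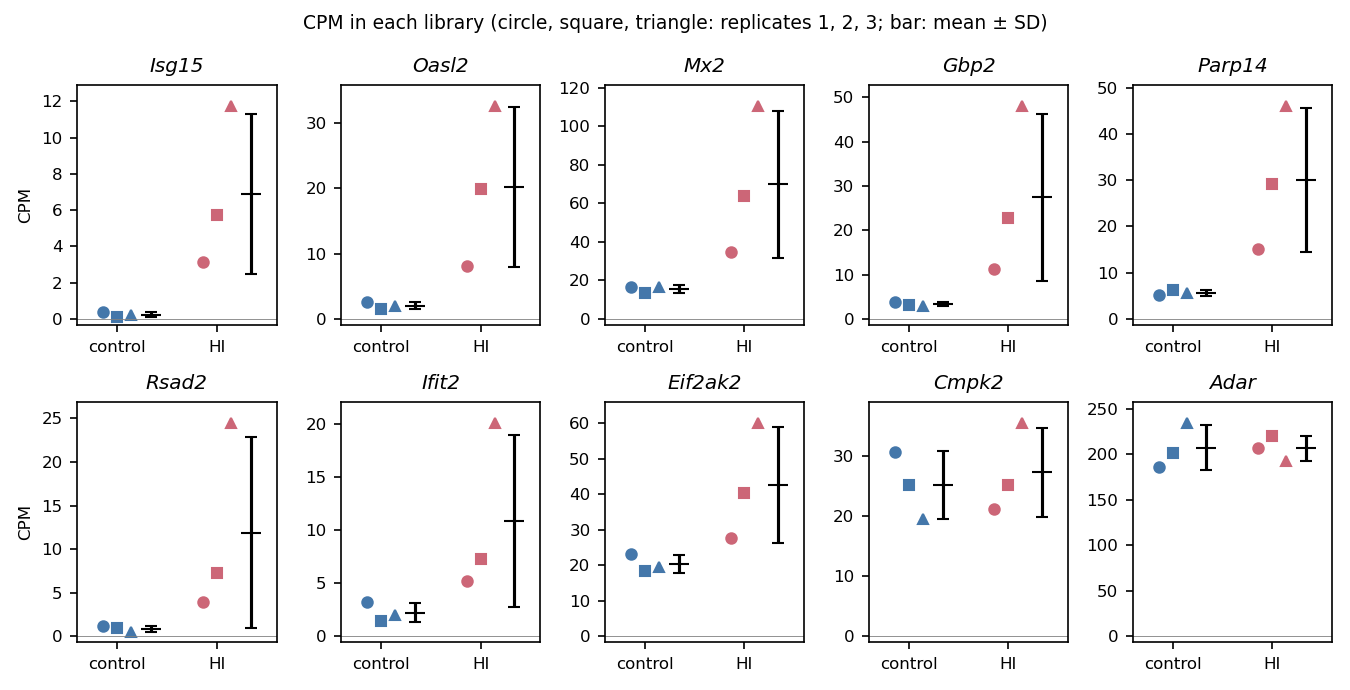
CPM of 10 genes in each of the 6 libraries (symbols, by replicate) with the mean and SD of each group, on linear axes that include 0. For Isg15, Oasl2, Mx2, Gbp2, Parp14, Rsad2, Ifit2 and Eif2ak2 all HI points lie above all control points, whereas for Cmpk2 and Adar they overlap.

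HI libraries differed from one another in the same way across most members. HI 3 held the highest and HI 1 the lowest HI value in 39 of 42 tested members, a pattern that 30.8% of all genes tested showed, and the exceptions were Ifit1, Samhd1 and Adar. Among the 32 called members, where it held for 32, CPM in HI 3 were between 1.85 times (Ifih1) and 6.20 times (Rsad2) those in HI 1, with a median of 3.22. The members' median of log2(CPM + 0.5) relative to the control mean was 1.16, 1.90 and 2.76 in HI 1, HI 2 and HI 3, and 0.01, 0.04 and -0.01 in the corresponding controls. Members share these libraries, so they are not independent of each other.

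Markers of other cells were set beside these medians. For 16 microglia markers the medians were -0.21, -0.14 and 0.36 in controls, against 0.92, 1.29 and 1.75 in HI, and 13 of the 16 rose. P2ry12, Tmem119 and Sall1 did not pass, with log2 fold changes of -0.13 ± 0.24 (SE), 0.47 ± 0.28 (SE) and 0.44 ± 0.19 (SE). The summed CPM of the 16 ran from 199 to 297 in the controls and from 468 to 782 in HI. Endothelial markers had medians from -0.29 to 0.14 in the controls and of -0.13, 0.75 and 0.98 in HI (1 of 7 rose), with summed CPM of 152 to 207 and 166 to 338. Neuron markers had medians from -0.11 to 0.04 in the controls and of -0.68, -0.96 and -1.58 in HI (3 of 10 fell), with summed CPM of 7210 to 8780 in the controls and 2840 to 5211 in HI. They did not move as one. Gad1 and Gad2 had positive log2 fold changes, 0.39 ± 0.48 (SE) and 0.35 ± 0.64 (SE), that did not pass. Slc17a7 stood at 474, 511 and 426 CPM in the controls and 2.54, 63.3 and 51.1 CPM in HI and did not pass either (edgeR adjusted p = 0.0529). Astrocyte markers had medians of 0.02, -0.39 and 0.50 in controls, against 0.81, 0.40 and 1.16 in HI (2 of 9 rose, Gfap and Aqp4), and their summed CPM ran from 1327 to 2165 and from 3295 to 4907. Gfap stood at 146, 143 and 136 CPM in the controls and 937, 1403 and 2306 CPM in HI. Of the 7 that did not pass, Slc1a2, Aldoc and Aldh1l1 had log2 fold changes of -1.45 ± 0.61 (SE), -0.12 ± 0.35 (SE) and -0.11 ± 0.25 (SE), and the rest were positive. Mural cell markers, of vessel walls, had medians from -0.24 to 0.25 in the controls and of 0.04, 0.78 and 1.28 in HI (2 of 6 rose), with summed CPM of 120.5 to 165 and 191 to 485. The part of cell numbers in the members' values was not tested, and in bulk tissue fewer cells of a type and less RNA per cell cannot be told apart.

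Border macrophage markers also stood higher in HI, where 3 of 5 tested rose, of which Folr2 and Clec10a passed the filter through their HI reads, with summed CPM of 9.31 to 18.9 in the controls and 20.4 to 58.6 in HI. Cd3e, Cd3d and Cd3g, which mark T cells, had at most 1 read in any library, the B-cell gene Ms4a1 at most 1, and Siglech, which marks plasmacytoid dendritic cells, at most 1. Of 14 blood leukocyte markers 12 had a row and 4 could be tested, of which Cd8a, Csf3r and Plac8 rose, with summed CPM of 8.10 to 15.2 in the controls and 17.0 to 32.9 in HI. Cd8a and Plac8 passed the filter through their HI reads, and Cd8a had 1, 4 and 6 control reads and 23, 68 and 69 HI reads. Of the 6 plasmacytoid dendritic cell markers 3 could be tested, of which Irf8, also a factor of microglia, and Bst2, itself a member, rose and Tcf4 fell. The other markers, Siglech included, lay below the filter, with at most 1 read of Ccr9 and 5 of Spib in any library. Summed CPM of the 3 tested genes were 53.4 to 80.3 in the controls and 46.2 to 84.0 in HI. Most of the control sum was Tcf4, at 73.2, 67.1 and 41.8 CPM in the controls and 20.5, 25.5 and 25.6 CPM in HI.

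Choroid plexus markers overlapped between the groups. Their medians were -1.37, 2.93 and -1.63 in controls, against 0.32, 4.82 and 5.44 in HI. Their part in the members' values was not tested. The libraries with Y-linked reads include a lone control and those without them a lone HI library, too few for a comparison within either set.

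**Figure D5:**
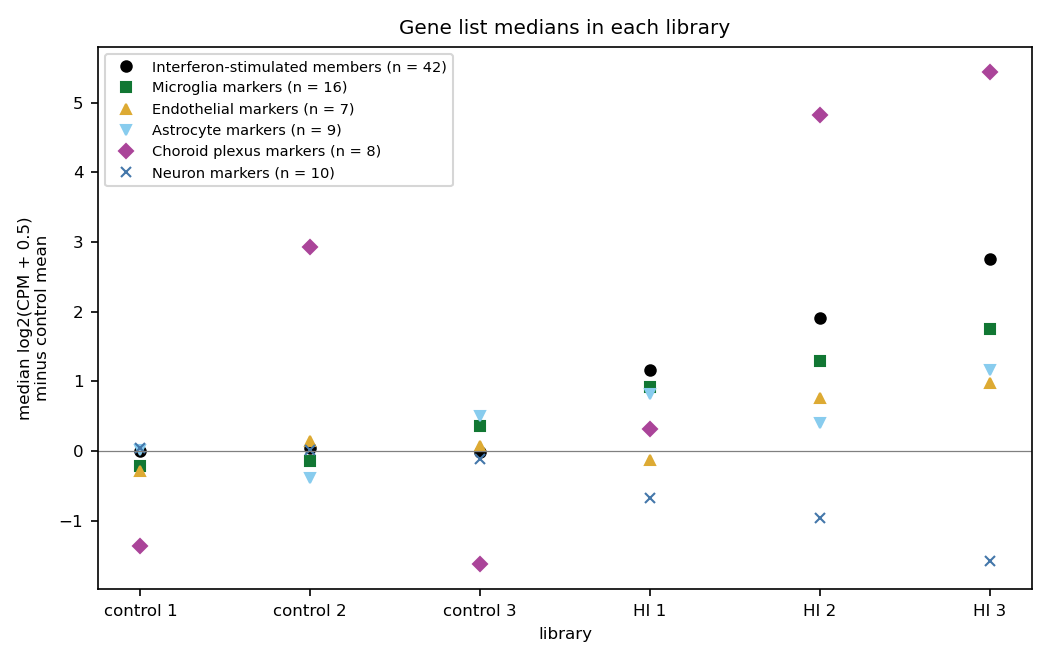
Median over each gene list of log2(CPM + 0.5) minus the control mean, in each of the 6 libraries, for the 42 tested interferon-stimulated genes and 5 lists of cell markers. The interferon-stimulated genes sit within 0.04 of 0 in the controls and at 1.16, 1.90 and 2.76 in HI, while choroid plexus markers are high in control 2, HI 2 and HI 3.

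Other genes of the interferon pathway, 47 with a row of 58 listed, were examined beside the members. Of 42 tested 9 rose, 0 fell and 33 did not pass, with a median log2 fold change of 0.62, and no test compared them with the members. DESeq2 called 16 of them higher and limma-voom 5, and by edgeR the count was 0 without control 1, control 2 or HI 2 and 18 without HI 1. In those edgeR fits 0, 0, 0 and 2097 of all genes tested were called higher. Among ligands only Ifna5 and Ifne had a row, each with 1 read in 1 HI library and 0 elsewhere, and the others, Ifnb1 and Ifng included, were not analysed here. Receptors gave 0 calls of 6 by edgeR, with Ifngr2 and Il10rb at an unadjusted p below 0.05, and likewise 0 by DESeq2 (3 unadjusted) and limma-voom (2). Of all 14959 genes tested, 5460 had an unadjusted p below 0.05 by edgeR, 5796 by DESeq2 and 5246 by limma-voom. Ifnar1, a chain of the type I receptor, stood at 174, 158 and 151 CPM in the controls and 138, 146 and 126 CPM in HI, and Ifngr2, a chain of the interferon gamma receptor, at 69.3, 65.6 and 55.0 CPM in the controls and 45.4, 54.9 and 49.1 CPM in HI, with log2 fold changes of -0.23 ± 0.10 (SE) and -0.35 ± 0.13 (SE) that did not pass. Ifngr1 stood at 32.7, 41.3 and 41.0 CPM in the controls and 41.3, 46.5 and 56.3 CPM in HI and did not pass either.

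The signalling chain from receptor to promoter held both called and uncalled genes. Irf9, the DNA-binding subunit of the promoter-binding complex, rose 1.98-fold (edgeR adjusted p = 0.0432), and Stat2, another subunit, stood at 26.6, 24.9 and 26.3 CPM in the controls and 29.4, 48.1 and 69.7 CPM in HI and did not pass (edgeR adjusted p = 0.0774). Irf7, which amplifies interferon production and is itself induced, stood at 0.833, 0.957 and 0.374 CPM in the controls and 4.15, 9.96 and 22.8 CPM in HI, a rise of 16.9-fold (edgeR adjusted p = 0.0262). Irf8, a factor of microglia and other myeloid cells, rose 4.14-fold. The receptor kinases Jak1, Jak2 and Tyk2 had log2 fold changes of -0.10 ± 0.09 (SE), -0.02 ± 0.08 (SE) and 0.10 ± 0.15 (SE), and Irf1, a target of interferon gamma, had one of 2.14 ± 0.67 (SE), none of which passed.

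Of 10 tested genes that act upstream of interferon 2 rose, Tlr7 (log2 fold change 1.86 ± 0.27 (SE)) and Tlr3 (1.58 ± 0.35 (SE)), Toll-like receptors for RNA in endosomes. The cytosolic DNA sensor cGAS (Mb21d1) stood at 0.833, 0.736 and 0.674 CPM in the controls and 1.34, 1.03 and 1.88 CPM in HI and its adaptor Sting1 (Tmem173) at 1.74, 0.957 and 2.1 CPM in the controls and 2.67, 5.08 and 5.21 CPM in HI. Both were higher in all HI libraries than in any control and neither passed (edgeR adjusted p = 0.128 for Mb21d1 and edgeR adjusted p = 0.0635 for Tmem173). Mavs, the adaptor of Ddx58 and Ifih1, and the kinases Tbk1 and Ikbke had log2 fold changes of 0.50 ± 0.18 (SE), 0.13 ± 0.14 (SE) and 0.36 ± 0.41 (SE) that did not pass.

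Among 9 negative regulators 2 rose, Socs3, a feedback inhibitor of gp130 cytokine receptors, by 7.11-fold and Ptpn6 (SHP-1), a phosphatase of blood-derived cells and microglia, by 4.8-fold. Socs1, the main feedback inhibitor of interferon receptors, stood at 1.59, 1.25 and 0.824 CPM in the controls and 1.4, 1.61 and 2.12 CPM in HI and did not pass (edgeR adjusted p = 0.379). The nucleases Trex1, Rnaseh2a, Rnaseh2b and Rnaseh2c, which clear the cell's own nucleic acid, had log2 fold changes between -0.10 ± 0.11 (SE) for Rnaseh2a and 0.21 ± 0.22 (SE) for Trex1, and none passed.

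Interferon-induced chemokines had few reads, and of 2 tested edgeR called 0, DESeq2 2 and limma-voom 1. By edgeR both had an unadjusted p below 0.05, as did 5460 of all 14959 genes tested. Both passed the filter on low counts through their HI reads, so a difference was partly built in. Cxcl10, which attracts T cells and is made by astrocytes and microglia, had 0, 0 and 0 reads in the control libraries and 10, 15 and 123 reads in HI, at least 13.5-fold higher against 3 reads per control library, and did not pass (edgeR adjusted p = 0.0659). Ccl2, which attracts monocytes, had 2, 1 and 8 reads in the control libraries and 16, 32 and 97 reads in HI (log2 fold change 3.42 ± 0.92 (SE), edgeR adjusted p = 0.0544). Cxcl9, Cxcl11 and Ccl5 had at most 3 reads in any library apart from 15 of Cxcl11 in HI 3 and were not tested. As with Ifit1 and Ifit3, most of the Cxcl10 reads, 123 of 148, came from HI 3.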

How the data were processed

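Extraction used TRIzol and library construction a SMARTER mRNA-Seq kit, per the labels' protocols. The submitters' processing notes list, with no role, StringTie 2.2.1, SAMtools 1.10, HISAT2 2.1.0 and Rnor 6.0 as the assembly. Not given in the sources used here: how reads were counted, the strand setting and the rule for reads that match several genes. Deposited values are estimated counts per gene, unscaled, and 8.87% of entries in 2410 genes were not whole to within 1e-09, which touches 7 members (Oas1a, Oas1g, Oas1i, Oas1k, Mx1, Mx2 and Igtp). All 6 columns were matched to samples by name, and 1 is spelled with a missing letter.

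Estimated counts were rounded, filtered with filterByExpr (minimum count 10), scaled by TMM and tested in R 4.3.3 by edgeR 4.0.16 with its quasi-likelihood F test (limma 3.58.1 for voom), group being the only term. SE were derived from the F statistic. CPM use unrounded counts, and fold changes are from the fit. The procedure was tested on data simulated with a single fixed spread and with changes set in 200 genes. None of these genes had low mean counts, so members with few reads were not covered. No library pair was a duplicate (chi-square per degree of freedom of at least 13.4). Alternatives were other scalings, filters and tests (DESeq2 1.42.0, limma-voom), the replicate number as a block, leaving out libraries or genes with entries that are not whole, and, chosen after seeing the data, summing genes among which reads may have been divided. Intervals and floors cover counting error only, and amplified reads without molecular identifiers are not independent molecules. The members, gene lists and tests were chosen with earlier results of these data known. Values in every library are given, in each role group, for the members with the highest mean CPM (up to 4, or 5 in groups of more than 8), for every tested member that did not pass and for any member without control reads, and other members named with such values were added after their values were seen. Some genes of the lists are not reported here. Of the members 46 matched the RefSeq gene table by gene number.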

Additional observations from a re-analysis of the deposited data

How the results depend on the processing

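Counts of called members kept within 1.5 times of 32 (range 22 to 37) under the other scalings, DESeq2, both other filters, the replicate block and either treatment of genes with entries that are not whole, with 0 called lower throughout, but fell to 8 with limma-voom and ran from 0 to 38 when single libraries were left out. The 8 were all among the 32. The members' median log2 fold change ran from 1.75 to 2.65 over those leave-outs, with the lowest without HI 3, and from 2.15 to 2.52 elsewhere. Other pathway genes called higher were 16 with DESeq2 and 5 with limma-voom, and 0 to 18 over the leave-outs. All genes called higher were 2161 with total counts, 2076 with DESeq2 and 552 with limma-voom, those called lower were 2124 with DESeq2, and over the leave-outs the counts ran from 0 to 2097 and from 0 to 1592. With the replicate number as a block 22 members and 771 genes were called higher. Same-numbered libraries correlated in their deviations from the group means with r = 0.239, 0.0731 and -0.146 across genes, so the numbers were not taken as pairs, and not every library correlated best with its own number. The log2 fold change of Adar changed sign with upper-quartile factors (0.093), total counts (0.19), limma-voom (1.2e-03), the filter of at least 1 CPM in 3 libraries (1.8e-04), the replicate block (9.8e-04) and without control 3 or HI 3 (0.059 and 0.045). Cmpk2 changed sign without control 3 or HI 3 (-0.073 and -0.11, against up to 0.27 without HI 1), as did Trafd1 without control 1 or HI 3 (-0.064 and -0.073, against up to 0.14 without HI 1), and none of these 3 genes passed in any of these fits. Without control 1 Adar was at -0.11. The cause of these differences was not tested. Depth limits Ifit3, Oas1i, Oas1k, Oas3 and Zbp1, which lay below the filter on low counts.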
